A study of Homo sapiens with 8 samples.

Results

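The organic ion, drug and nucleoside carriers are the solute carrier genes of the families SLC10, SLC15, SLC22, SLC28, SLC29 and SLC47 and the SLCO genes. The rule that picked them used gene symbols only, though it was set with earlier results of these data known. Of the 23346 genes in the deposited table, 56 met the rule. They were measured in hCMEC/D3, a human endothelial cell line that was derived from brain microvessels, immortalised, and serves in culture as a stand-in for the barrier between blood and brain. All 8 libraries were replicates of this line with no treatment named, so there was no comparison between conditions. Polyadenylated RNA was sequenced. The labels do not say whether the replicates were separate cultures, so p-values measure only the spread between these samples, which may be technical. As a model the material is limited to 1 immortalised line, and since RNA came from whole cultures, fewer cells that express a gene and less RNA per cell cannot be told apart.

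These carriers move small charged molecules, nucleosides, peptides and drugs across cell membranes. The equilibrative nucleoside transporters (SLC29) let nucleosides pass down their gradient, whereas the concentrative ones (SLC28) use the sodium gradient to pull them in. SLC22 genes encode organic cation, carnitine and organic anion transporters, SLC47 genes proton-coupled exporters of organic cations, SLC10 genes sodium-dependent bile acid and steroid sulphate carriers and their relatives, SLC15 genes proton-coupled peptide and histidine carriers, and SLCO genes the organic anion transporting polypeptides. At the barrier they bear on which drugs, hormones and metabolites enter or leave the brain.

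Total counts per library ranged from 69388544 to 90205244, and every count in the table was even, so 1 read pair appears to be worth 2 counts. The libraries differed in how levels depended on transcript length. The slope of a library's deviations on length was 0.08 to 0.14 (log2 per doubling of length) in replicates 1, 3, 4, 5 and 6, and -0.22, -0.10 and -0.33 in replicates 2, 7 and 8. Short transcripts were therefore relatively high in replicates 2, 7 and 8. These libraries gave the 3 highest CPM of 4 of the 13 carriers detected as defined below (SLC10A3, SLC29A1, SLC29A3 and SLCO4A1) and the 3 lowest of another 3 (SLC10A7, SLC22A5 and SLCO2A1), against 30.9% and 27.3% of all detected genes. Among detected partner genes of the carriers' pathways they gave the 3 highest in 22 of 64 and the 3 lowest in 14. The 8 defining endothelial markers were all detected (summed level 1776 to 3297 CPM, that is counts per 1000000 on scaled library sizes). None of 4 astrocyte and none of 4 microglia markers was detected, with AQP4 and P2RY12 at 0 in all libraries. Of 4 neuron markers 2 were detected, SYT1 at 4.17 and TUBB3 at 53.7 CPM. Also detected were 3 of 4 mural cell markers (summed level of the list 22.1 to 35.5 CPM, with KCNJ8 at 0.0271). The same held for 1 of 4 epithelial markers (KRT19, 2.61 CPM) and 1 of 6 hepatocyte and kidney tubule markers (CUBN, 2.64 CPM).

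A gene was called detected when it had at least 1 CPM in all 8 libraries. By this rule 13 of the 56 carriers (23.2%) were detected, against 51.3% of all genes listed and 159 of the 287 other solute carrier genes (55.4%). SLC29 had 3 detected genes of 4, SLC10 had 2 of 7, SLC15 had 2 of 5, SLC22 had 3 of 23, SLCO had 3 of 12, and SLC28 (3 genes) and SLC47 (2 genes) had none. Another 36 carriers had some counts without reaching the level, and 7 (12.5%, against 11.9% of all genes) had no counts in any library. The line at 1 CPM divided close values. Just inside lay SLCO2B1 (1.82 ± 0.615 CPM, SD, n = 8, lowest 1.22) and SLC29A3 (2.10 ± 0.472, lowest 1.60), and just outside lay SLC22A18 (1.73 ± 0.700, 0.970 in replicate 3) and SLC29A4 (1.28 ± 0.181, 0.939 in replicate 1). A minimum of 10 counts in every library, which lies far below 1 CPM at this depth, gave 20 carriers. The same minimum gave 14671 of all 23346 genes listed.

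**Figure D1:**
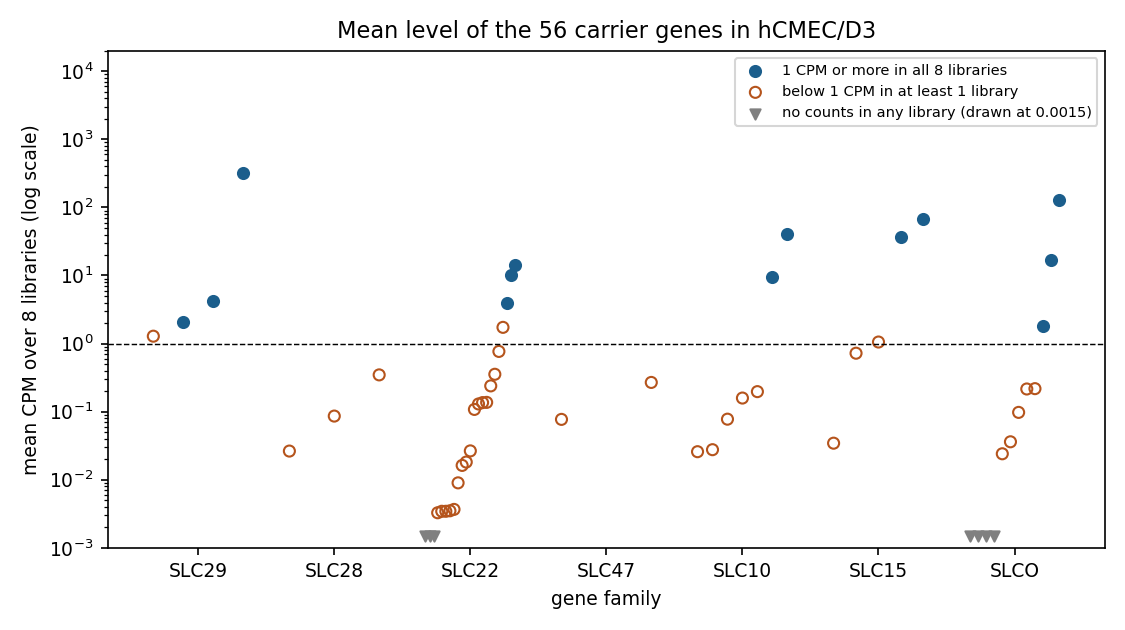
Mean level over 8 libraries (CPM, log axis) of each of the 56 carrier genes, by gene family; filled points reached 1 CPM in all 8 libraries, open points did not, and triangles mark genes with no counts, drawn at the bottom. SLC29A1 at 324 CPM and SLCO2A1 at 130 CPM stand highest, and the SLC22 and SLCO families hold the 7 genes without counts.

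Among the nucleoside carriers, SLC29A1 stood far above the others. SLC29A1 (chromosome 6, 44187242 to 44201888, plus strand, 13 exons) encodes ENT1, the main equilibrative nucleoside transporter and the target of dipyridamole-type inhibitors. Its levels in replicates 1 to 8 were 297, 359, 307, 294, 326, 279, 334 and 395 CPM. The highest CPM values were those of replicates 8 and 2, and the whole span was 1.42-fold. This order depended on the scale. On the authors' normalised values (log2), which adjust for length and GC content, replicates 2, 7 and 8 were lowest (9.03, 9.16 and 9.06). Per kilobase of the canonical transcript SLC29A1 had 155 ± 18.5 RPKM (CPM divided by length in kilobases, SD, n = 8), higher than 96.4% of the 11636 detected genes with a known length. SLC29A2 (chromosome 11, 66129992 to 66139291), which encodes ENT2, had 3.33 to 4.97 CPM (median 4.33) and 1.72 ± 0.209 RPKM. SLC29A3 (chromosome 10, 73079010 to 73123147), the endolysosomal and mitochondrial family member, had 1.60 to 2.84 CPM (median 1.98) and 0.931 ± 0.209 RPKM. SLC29A4 (chromosome 7, 5322561 to 5343704), which encodes the plasma membrane monoamine transporter, had 0.939 to 1.46 CPM and fell short of the detection level in replicate 1 only.

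Levels of 2 genes were compared per length within each library, as the log2 ratio of (CPM + 0.1) per kilobase, and the 8 ratios were tested two-sided with an exact permutation of their signs (256 patterns). Of 16 pairs listed, 12 had at least 1 detected gene and were tested, and p-values were adjusted over these 12. Where only 1 gene of a pair was detected, the detection rule itself largely set the order, so the p-value adds no support. This exact permutation test can go no lower than p = 0.00781, with an adjusted value of 0.00852. SLC29A1 exceeded SLC29A2 by 6.47 ± 0.11 (SD, n = 8), with 6.24 to 6.58 in the single libraries, and this ratio reached that limit (exact permutation p = 0.00781, adjusted p = 0.00852). The ratios of SLC29A1 to SLC29A3 (7.33 ± 0.17) and to SLC29A4 (9.33 ± 0.19) also kept their sign in 8 of 8 libraries with the same p-values. The sizes depended on the scale: with union exon lengths the ratio of SLC29A1 was 5.57 to SLC29A2 and 8.32 to SLC29A4, and on the authors' values it was 7.501 to SLC29A4. SLC29A3 lay below SLC29A2 by a log2 ratio of -0.87 ± 0.22, from -1.22 in replicate 3 to -0.57 in replicate 2, again in 8 of 8 libraries and with the same p-values, and by -2.18 with union exon lengths.

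The concentrative carriers were near the floor. SLC28A2, which prefers purine nucleosides, had 0.236 to 0.448 CPM (median 0.343), SLC28A3, which takes purines and pyrimidines, had 0 to 0.184 CPM with no counts in replicate 2, and SLC28A1, which prefers pyrimidines, had 8 read pairs in all libraries together. The SLC29 family held 58.2% ± 2.12 of the summed RPKM of all 56 carriers (SD, n = 8; 55.6% to 61.2%), and SLC28 held 0.0397% ± 0.00909. The order of SLC29A1 over SLC28A3 held in 8 of 8 libraries. The size of that ratio depended on the constant added, since SLC28A3 was near 0: it was 12.1 (log2) with 0.1 CPM added, and 9.47 with 1 CPM and 13.5 with 0.01 CPM.

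Partner genes are given in CPM, which is not per length, so their levels are ranked neither against the carriers nor per length. Of the 110 partner genes listed, 64 were detected, and the list counts given here and below stand beside 51.3% of all genes. The enzymes that act on nucleosides after transport were largely present. Of 18 salvage and breakdown enzymes 17 were detected. Those with the highest CPM were the thymidine kinase TK1 (263 ± 91.4 CPM, SD, n = 8), UCK2 (106 ± 12.3), a uridine-cytidine kinase, and HPRT1 (104 ± 9.15), the hypoxanthine salvage enzyme. UPP2, a uridine phosphorylase, was the exception at 0.00649 CPM. Of 8 ectoenzymes that make or clear extracellular nucleosides 5 were detected. NT5E, the ectonucleotidase that releases adenosine, had 204 ± 46.0 CPM, DPP4, which anchors adenosine deaminase, had 35.6 ± 6.53, and ENTPD1, which degrades ATP and ADP, had 25.9 ± 3.18, whereas ENTPD2, ENTPD3 and ENPP3 were not detected (0.873, 0.0374 and 0.0721 CPM). Of the 4 adenosine receptors, ADORA2B (14.3 ± 2.93 CPM) and ADORA2A (5.91 ± 2.82) were detected, and ADORA1 (1.44 ± 0.510) and ADORA3 (0.136 ± 0.0932) were not.

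**Figure D2:**
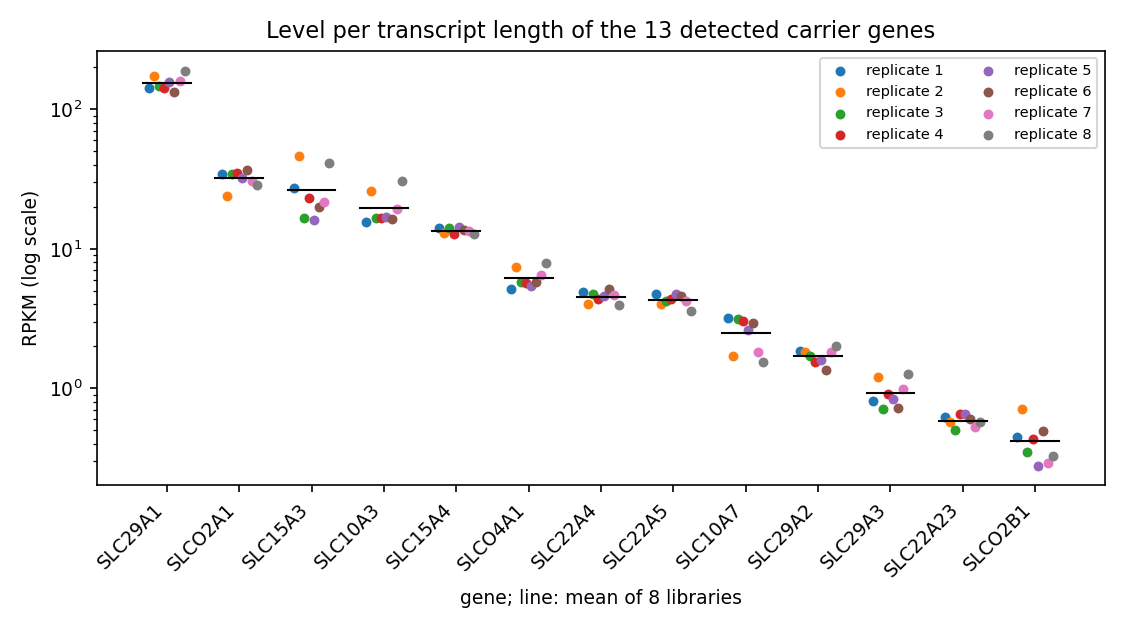
RPKM (log axis) of the 13 detected carriers in each of the 8 libraries, ordered by mean; points are single libraries and the line is the mean. SLC29A1 lies apart from the rest, while SLCO2A1, SLC15A3 and SLC10A3 overlap.

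In the SLC22 family the carnitine and ergothioneine carriers were the main members. SLC22A5 (chromosome 5, 131705401 to 131731306, plus strand) encodes OCTN2, the high-affinity carnitine transporter, and had 11.7 to 15.6 CPM (median 14.04). Its neighbour SLC22A4 (131630145 to 131679899 on the same chromosome and strand) encodes OCTN1, an ergothioneine transporter, and had 8.89 to 11.5 CPM (median 10.3). Per length of the canonical transcripts they had 4.30 ± 0.404 RPKM for SLC22A5 and 4.54 ± 0.420 for SLC22A4 (SD, n = 8), and per union exon length 0.767 and 3.73. The log2 ratio of SLC22A5 to SLC22A4 was -0.084 ± 0.091, negative in 7 of 8 libraries (exact permutation p = 0.0391, adjusted p = 0.0391). In replicates 2 and 4 the ratio was -0.0030 and -0.0029, and without the added constant SLC22A4 was higher in 5 of 8 libraries only. The ratio turned to 0.11 ± 0.10 on the authors' normalised values, and with union exon lengths it was -2.29 (exact permutation p = 0.00781, adjusted p = 0.00852), so size and direction depended on the length and scale used. Both genes overlap the listed gene LOC553103, and use of strand in the counting is not given in the sources used here. SLC22A23 (chromosome 6, 3269207 to 3456793), an orphan family member, had 3.33 to 4.33 CPM (median 3.89) and 0.586 ± 0.0555 RPKM. SLC22A18 (chromosome 11, 2920951 to 2946476), in an imprinted region, overlaps the antisense gene SLC22A18AS and had 0.970 to 2.97 CPM.

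The classical drug-handling carriers of the family were low or without counts. The organic cation transporter SLC22A3 (OCT3) had 0.0244 to 0.244 CPM, and SLC22A2 (OCT2) had 1 read pair in 1 library. The organic anion transporters SLC22A6 (OAT1), SLC22A7 (OAT2) and SLC22A11 (OAT4) had no counts in any library, and the limit set by 3 read pairs was 0.0665 to 0.0880 CPM depending on the library (counting error only). SLC22A8 (OAT3), which is known from the brain capillaries of rodents, had 3 read pairs in all, and the urate transporter SLC22A12 had 1. SLC22A20 (0.520 to 0.974 CPM), SLC22A17, a lipocalin-2 receptor (0.205 to 0.488 CPM), and SLC22A31 (0.112 to 0.365 CPM) had counts in every library without reaching 1 CPM in any. SLC22A9 and SLC22A13 had means of 0.130 and 0.108 CPM, and SLC22A10, SLC22A14, SLC22A15, the carnitine transporter SLC22A16, SLC22A24 and SLC22A25 had 1 to 8 read pairs each over the 8 libraries. The exporters SLC47A1 (MATE1) and SLC47A2 had 0.110 to 0.446 and 0.0237 to 0.233 CPM.

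The genes of carnitine synthesis and use were largely present, and the amine transporters largely were not. In the carnitine list 8 of 10 genes were detected, with the highest CPM in CPT1A (207 ± 10.8 CPM, SD, n = 8), which makes long-chain acylcarnitine at the outer mitochondrial membrane, ALDH9A1 (64.3 ± 5.08), an enzyme of carnitine synthesis, and CRAT (60.6 ± 12.7), carnitine acetyltransferase. CPT1B (1.35 ± 0.533) and BBOX1, the last enzyme of carnitine synthesis (0.0102), were not detected. In the organic cation and amine list 3 of 10 were detected, among them MAOA (166 ± 22.01 CPM), which degrades monoamines, and the vesicular transporter SLC18A2 (8.17 ± 1.48). The other vesicular transporter, SLC18A1, had no counts.

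Of the SLCO genes, SLCO2A1, SLCO4A1 and SLCO2B1 were detected. SLCO2A1 (chromosome 3, 133651540 to 133748920, minus strand, 14 exons) encodes the prostaglandin transporter. Its levels in replicates 1 to 8 were 140, 97.3, 141, 142, 132, 148, 125 and 116 CPM. Replicate 2 was lowest and replicate 8 next, and the mean per length was 32.0 ± 4.11 RPKM (SD, n = 8), higher than 78.2% of detected genes. SLCO4A1 (chromosome 20, 61273797 to 61303647), which carries thyroid hormones and other organic anions and overlaps LOC100127888, had 13.9 to 21.4 CPM (median 15.7) and 6.20 ± 0.9899 RPKM. SLCO2B1 (chromosome 11, 74862032 to 74917445), a carrier of steroid sulphates and many oral drugs, had 1.22 to 3.08 CPM (median 1.71), highest in replicate 2, and 0.415 ± 0.141 RPKM. SLCO2A1 exceeded SLCO2B1 by 6.24 ± 0.53 per length (log2, SD, n = 8) in 8 of 8 libraries (exact permutation p = 0.00781, adjusted p = 0.00852).

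SLCO1A2, SLCO1C1 and SLCO3A1 were not detected. SLCO1A2, the OATP usually described in human brain capillaries, had 0 to 0.492 CPM, with its highest value in replicate 5 and no counts in replicate 8, and it overlaps IAPP. SLCO1C1, the thyroxine carrier of brain capillaries, had 7 read pairs in all. SLCO3A1 had 0.0974 to 0.419 CPM, SLCO4C1 0.0487 to 0.235 CPM, and SLCO5A1 11 read pairs in all. SLCO1B1 and SLCO1B3, the hepatocyte uptake carriers of statins, SLCO1B7 and the testis gene SLCO6A1 had no counts. SLCO4A1 and SLCO2A1 each exceeded SLCO3A1, and SLCO2B1 exceeded SLCO1A2, in 8 of 8 libraries (exact permutation p = 0.00781, adjusted p = 0.00852). SLCO3A1 and SLCO1A2 were below 1 CPM in every library, whereas detection of the other genes required at least 1 CPM in all. The order was thus largely set by that rule, and these p-values add no support. The log2 ratios were 6.69 ± 0.56, 9.06 ± 0.41 and 3.43 ± 0.92 (SD, n = 8) with 0.1 CPM added, and 4.77, 7.07 and 1.898 with 1 CPM added.

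Genes that make, sense or clear the substrates of these carriers were measured in the same libraries. Of 12 prostaglandin genes 7 were detected. PTGES3, a co-chaperone with prostaglandin E synthase activity, had 499 ± 18.8 CPM (SD, n = 8), the receptor PTGER4 63.8 ± 16.2, and PTGES2 49.4 ± 14.5. PTGS1 and PTGIS were also among the detected genes (20.8 ± 3.3 and 16.4 ± 3.3 CPM). The prostaglandin dehydrogenase HPGD, which inactivates prostaglandins after uptake, was not detected (0.0193 CPM), and neither were PTGS2 (0.288), PTGES (0.929), PTGER2 (1.09) and PTGER3 (0.107). Of 11 thyroid hormone genes 3 were detected, namely the amino acid carrier subunits SLC3A2 (236 ± 49.9 CPM) and SLC7A5 (209 ± 67.1) and the receptor THRA (38.2 ± 8.09). Of 8 drug efflux pumps 6 were detected, with the highest CPM in ABCB1, the P-glycoprotein gene (108 ± 28.5 CPM), ABCC1 (101 ± 19.6) and ABCC4 (66.0 ± 21.2), while ABCC2 (0.915) and ABCC6 (0.237) were not. Of 9 regulators 6 were detected, with the highest CPM in NFE2L2 (122 ± 14.7 CPM), the glucocorticoid receptor NR3C1 (116 ± 36.6) and AHR (110 ± 29.8), whereas the xenobiotic receptors NR1I2 (0.439) and NR1I3 (0.403) and the hepatic factor HNF4A (0.0294) were not.

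SLC10A3 and SLC10A7 were the detected members of the bile acid carrier family. Neither is known as a bile acid carrier: SLC10A3 is an orphan, and SLC10A7 bears on calcium entry and protein glycosylation. SLC10A3 (chromosome X, 153715650 to 153719002, 2 exons) had 32.8, 54.2, 34.9, 35, 35.5, 34.4, 40.5 and 63.8 CPM in replicates 1 to 8 and 19.7 ± 5.43 RPKM (SD, n = 8). SLC10A7 (chromosome 4, 147175137 to 147443123, 12 exons) had 12.03, 6.36, 11.7, 11.4, 9.85, 11.0, 6.84 and 5.80 CPM and 2.50 ± 0.698 RPKM. Replicates 8, 2 and 7 were the 3 highest for SLC10A3 and the 3 lowest for SLC10A7, and these were the libraries with negative length slopes. The transcripts are 2095 and 3756 nt long, with a GC content of 62.15% in SLC10A3 and 36.55% in SLC10A7. The separate parts of length and GC content in these differences were not tested. On the authors' values, which adjust for length and GC content, the SD of SLC10A3 was 0.06 (log2) against 0.35 for log2 CPM, and that of SLC10A7 was 0.13 against 0.44. SLC10A7 lay below SLC10A3 by a log2 ratio of -2.99 ± 0.77 per length (SD, n = 8) in 8 of 8 libraries (exact permutation p = 0.00781, adjusted p = 0.00852), by -2.83 ± 0.09 on the authors' values and by -4.62 with union exon lengths.

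The SLC10 transporters of circulating bile acids and steroid sulphates were near the floor. SLC10A1, the hepatocyte bile acid carrier, had 0.0473 to 0.336 CPM, SLC10A2, its ileal counterpart, and SLC10A6, a steroid sulphate carrier, had 8 read pairs each in all, and SLC10A4 and SLC10A5 had means of 0.0776 and 0.197 CPM. In the list of bile acid and steroid conjugate genes 7 of 9 were in the table and 2 were detected, the oestrogen sulphotransferase SULT1E1 (87.5 ± 9.06 CPM, SD, n = 8) and the steroid sulphatase STS (35.8 ± 9.77). The bile acid exporter ABCB11 (0.0838), the bile acid receptors NR1H4 (0.0830) and GPBAR1 (0.198), SULT2B1 (0.0786) and FABP6 (0.0125) were not detected.

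In the peptide carrier family the lysosomal histidine and peptide carriers were the detected members. SLC15A4 (PHT1; chromosome 12, 129277739 to 129308541) anchors an innate signalling adaptor on endolysosomes in immune cells. It had 35.3 to 39.2 CPM (median 36.9) and 13.5 ± 0.593 RPKM, and its coefficient of variation of CPM of 4.40% was the lowest of the 13 detected carriers. On the authors' values its SD of 0.11 (log2) was above those of SLC10A3 (0.06) and SLCO4A1 (0.098). SLC15A3 (PHT2; chromosome 11, 60704555 to 60719257) is a close relative of SLC15A4 and overlaps TMEM132A. It had 68.6, 116, 41.4, 58.2, 40.4, 50.3, 54.1 and 104 CPM in replicates 1 to 8 and 26.6 ± 11.4 RPKM (SD, n = 8). Replicates 2 and 8 were highest and replicates 3 and 5 lowest, a 2.88-fold span. SLC15A4 lay below SLC15A3 by a log2 ratio of -0.88 ± 0.61 per length in 8 of 8 libraries (exact permutation p = 0.00781, adjusted p = 0.00852). With lengths from the union of annotated exons the ratio was -0.40 (exact permutation p = 0.109, adjusted p = 0.109), so that call depended on the length used. The plasma membrane peptide carriers SLC15A1 (PEPT1) and SLC15A2 (PEPT2) had 0.639 to 0.839 and 0.733 to 1.60 CPM, and SLC15A5 had 10 read pairs in all. Of 9 genes of endolysosomal and peptidoglycan sensing 3 were detected, UNC93B1 (54.6 ± 20.9 CPM), RIPK2 (38.02 ± 3.997) and NOD1 (28.2 ± 6.91). CXorf21, the adaptor that binds SLC15A4, had 0.0920 CPM.

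Ordered by mean RPKM, the 13 carriers ran SLC29A1, SLCO2A1, SLC15A3, SLC10A3, SLC15A4, SLCO4A1, SLC22A4, SLC22A5, SLC10A7, SLC29A2, SLC29A3, SLC22A23 and SLCO2B1. Neighbours kept their order in all 8 libraries at 7 of the 12 steps. The order was not kept at the steps from SLCO2A1 to SLC15A3 (6 of 8 libraries), SLC15A3 to SLC10A3 (6), SLC22A4 to SLC22A5 (5), SLC10A7 to SLC29A2 (5) and SLC22A23 to SLCO2B1 (7). With union exon lengths SLC15A3 exceeded SLC10A3, and SLC10A7 exceeded SLC29A2, in 0 of 8 libraries. Of the 7 steps kept in all libraries, 3 were not kept with union lengths: SLC29A3 exceeded SLC22A23 in 2 of 8, SLC22A5 exceeded SLC10A7 in 4 of 8 and SLCO4A1 exceeded SLC22A4 in 5 of 8. The order of the middle and lower carriers therefore depended on the length used. The median RPKM of the 13 was 4.54, against 11.4 over all detected genes.

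Variation between replicates was tested in edgeR for all 11980 detected genes, by the goodness of fit of a model with no groups at the dispersion trend of like-abundance genes. At an adjusted p under 0.05, 0 of the 13 detected carriers varied more than genes of like abundance, against 4.66% of all genes tested. Without adjustment 1 of the 13 carriers passed the same threshold, against 13.1% of all genes. That carrier was SLC15A3, with an edgeR adjusted p of 0.0699. SLC15A3 passed with the DESeq2 trend (goodness-of-fit adjusted p = 3.71e-05), with each library's length and GC trend removed (0.0434) and without replicate 8 (0.0186). In these settings 2811 of 11980, 746 of 11636 and 381 of 12078 genes tested passed, in the same order. SLC15A3 passed in none of the other alternatives run. Among these, the adjusted p was 0.283 without replicate 2, 0.242 without replicate 5 and 0.187 without replicate 3. Without replicates 2 and 8 it was 0.448. Over the alternatives run, the goodness-of-fit adjusted p of SLC15A3 ranged from 3.71e-05 to 0.448. The median coefficient of variation of CPM was 12.9% over the 13 carriers and 19.2% over all detected genes. On the authors' normalised values the corresponding median SDs were 0.17 and 0.16 (log2), so the lower spread of the carriers on the CPM scale was not seen there.

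**Figure D3:**
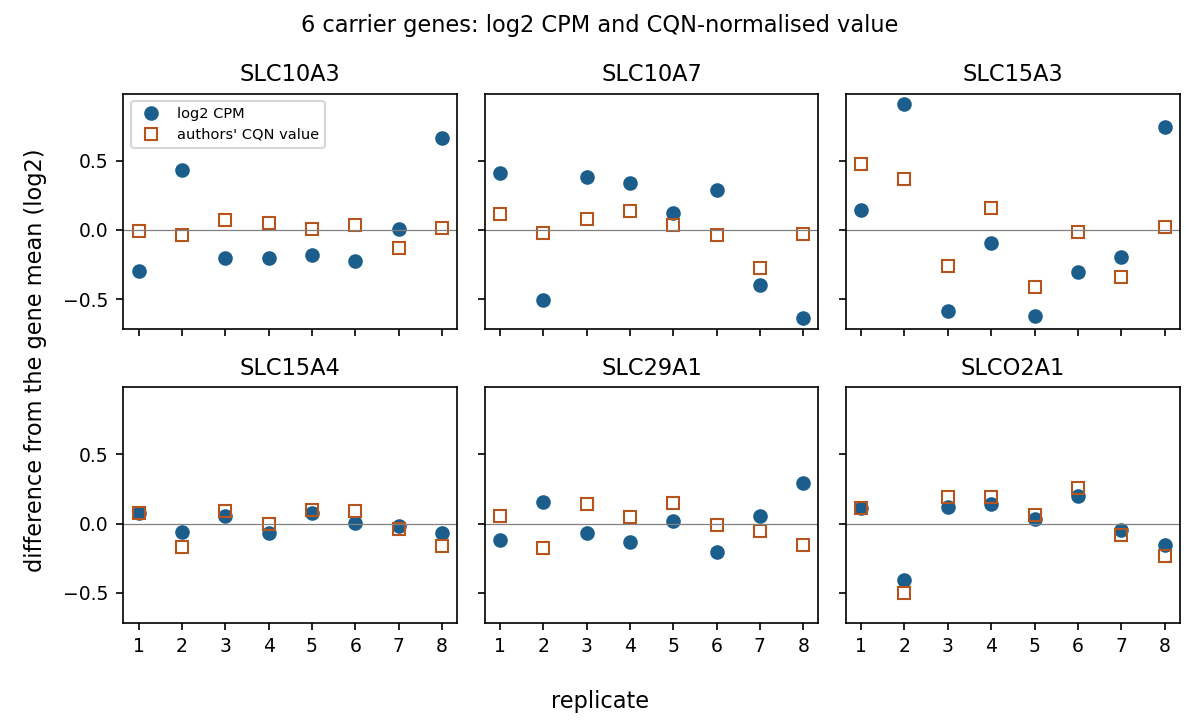
Difference from the gene's own mean (log2) in each of the 8 libraries for 6 carriers, as log2 CPM (filled circles) and as the authors' CQN-normalised value (open squares). SLC10A3 and SLC10A7 deviate in opposite directions on the CPM scale and little on the other, while SLC15A3 spans 0.89 and SLCO2A1 0.76 on the normalised scale.

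SLC15A3, SLCO2B1 and SLC22A18 had their lowest values in the same 3 libraries on the authors' normalised scale. SLC15A3 had 7.74, 7.63, 7.00, 7.42, 6.84, 7.24, 6.92 and 7.28 (log2) in replicates 1 to 8. SLCO2B1 had 1.38, 2.03, 1.02, 1.29, 0.61, 1.42, 0.79 and 1.10, and SLC22A18 had 2.85, 2.51, 1.79, 2.19, 1.83, 2.27, 1.97 and 2.16. Each had its 3 lowest values in replicates 3, 5 and 7, and replicates 1 and 2 were among the 3 highest of each. These 3 were picked out after their values were seen. Of the 18 carriers with normalised values they were the only ones with this lowest set, which 988 of all 13962 such genes (7.08%) had, and it was the 3rd most common of the 56 possible sets of 3 libraries.

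**Figure D4:**
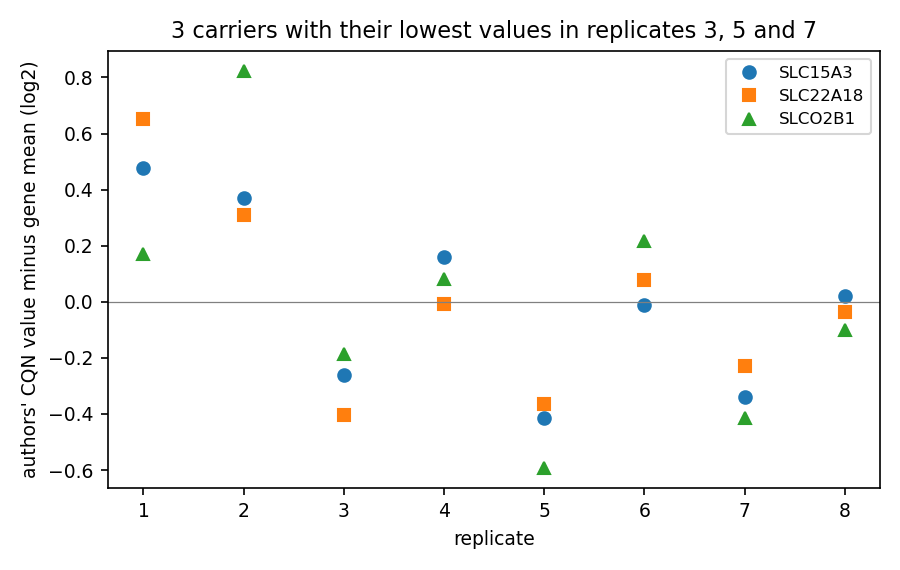
Authors' CQN-normalised value minus the gene's mean (log2) in each of the 8 libraries for SLC15A3, SLC22A18 and SLCO2B1. The points of replicates 3, 5 and 7 lie lowest for each gene, and those of replicates 1 and 2 lie above the mean.

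The carriers' promoters were compared by their CG dinucleotides, which are dense in the promoters of broadly expressed genes. RefSeq promoter windows (GRCh38.p14) matched 35 of the 56 carriers, 9 detected and 26 not, and SLC15A3, SLC29A2, SLCO2A1 and SLCO4A1 had none. In the 250 bases before the start, taking the richest window of a gene, detected carriers had a median of 25 CG (5 to 31) and the others 4.5 (0 to 32). At least 10 CG were found in 8 of 9 detected carriers (88.9%) and 8 of 26 others (30.8%), against 91.8% of all detected genes, 44.1% of genes not detected and 54.9% of all genes in the promoter table. The GC box GGGCGG, searched on both strands, was found in 6 of 9 and 10 of 26 (66.7% and 38.5%), against 76.2% of all detected genes, 40.8% of genes not detected and 46.2% of all genes in the table. The exception among detected carriers was SLCO2B1, with 5 CG. SLCO3A1 and SLC22A16 had 32 each and were not detected.

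The 120 bases before the RefSeq start are shown for 3 detected carriers and for a CG-rich carrier with only 8 read pairs, placed on GRCh37 by exact match. Capitals mark CG. The RefSeq starts differ from those in the deposited table, so that the last 15 bases of the SLC22A15 stretch, 6 of SLC29A3 and 1 of SLC22A5 lie inside the gene as listed there. The windows are chr5:131629967-131630086 (plus strand) for SLC22A4, chr5:131705282-131705401 (plus) for SLC22A5, chr10:73078896-73079015 (plus) for SLC29A3 and chr1:116519014-116519133 (plus) for SLC22A15.
SLC22A4: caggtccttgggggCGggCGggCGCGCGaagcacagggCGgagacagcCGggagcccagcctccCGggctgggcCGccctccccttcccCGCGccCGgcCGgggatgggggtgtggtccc
SLC22A5: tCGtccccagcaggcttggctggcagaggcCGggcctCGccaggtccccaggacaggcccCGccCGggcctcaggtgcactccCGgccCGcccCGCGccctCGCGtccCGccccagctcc
SLC29A3: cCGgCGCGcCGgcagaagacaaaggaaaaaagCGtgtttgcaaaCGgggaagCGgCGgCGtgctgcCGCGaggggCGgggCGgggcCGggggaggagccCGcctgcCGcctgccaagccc
SLC22A15: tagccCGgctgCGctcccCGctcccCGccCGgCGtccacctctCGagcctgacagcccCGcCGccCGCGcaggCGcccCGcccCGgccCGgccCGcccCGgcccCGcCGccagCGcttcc
The printed stretches held 13, 12, 16 and 20 CG in SLC22A4, SLC22A5, SLC29A3 and SLC22A15. SLCO1B1 and SLCO1B3, both without counts, had 0 CG in the 250 bases before the start. A match of letters is a description and does not show binding.

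**Figure D5:**
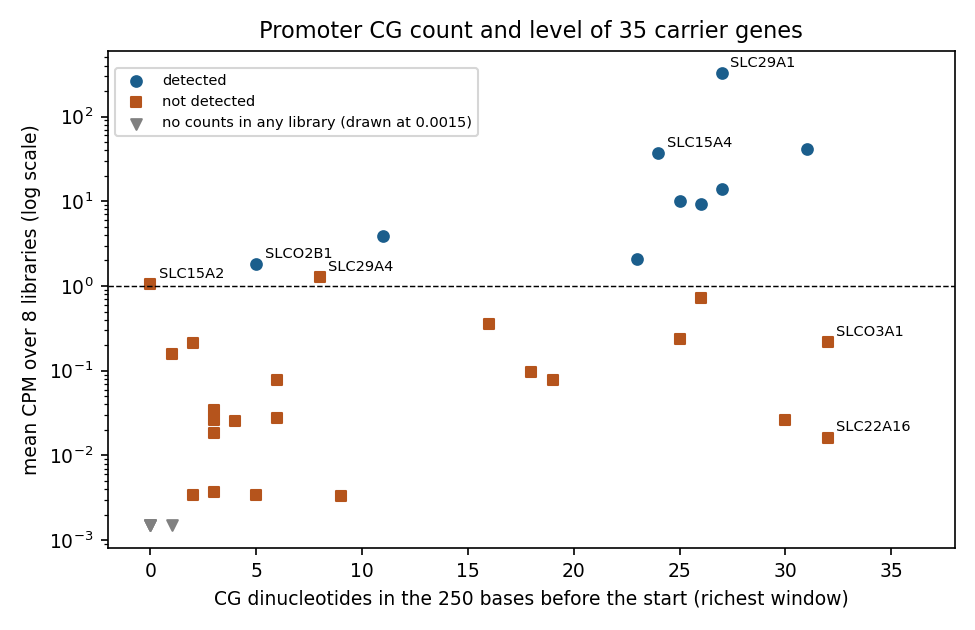
CG dinucleotides in the 250 bases before the start (x axis) and mean CPM over 8 libraries (y axis, log) of the 35 carriers with a RefSeq promoter window; circles are detected carriers, squares are not detected, and triangles had no counts. Detected carriers other than SLCO2B1 had at least 11 CG, and CG-rich carriers lie on both sides of 1 CPM.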

How the data were processed

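The 8 libraries were made from polyadenylated RNA of hCMEC/D3 using a TruSeq RNA kit (Illumina), as the labels' protocols state. The submitters' processing notes name CASAVA 1.9, TopHat2 2.0.6, HTSeq and hg19. The annotation, counting mode and use of strand are not given in the sources used here. The authors deposited raw counts per gene, and log2 values normalised by conditional quantile normalisation (CQN, for length and GC content), per the file headers; the log2 scale was judged from the values. No columns beyond these 16 were present.

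CPM used TMM-scaled library sizes (edgeR 4.0.16, R 4.3.3). RPKM divided CPM by the canonical transcript length of GENCODE 44 lifted to GRCh37. Starts are printed 1-based. The edgeR goodness-of-fit test ran across all detected genes with Benjamini-Hochberg adjustment. It was tested on simulated data. Limits at 0 counts cover counting error only, whereas each value after ± is an SD over the 8 libraries. The alternatives were other filters, scalings (DESeq2 1.42.0), pseudocounts, lengths and left-out libraries.

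The members, lists and pairs were chosen with earlier results of these data known. Named genes are the members, and of each partner list the 3 highest detected genes, genes above the variation trend, and undetected genes where 5 or fewer. SLC18A1, CXorf21, PTGS1 and PTGIS were named for their role after their values were seen. A few members and partner genes are not reported here.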

Additional observations from a re-analysis of the deposited data

Results flagged for a closer look

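The log2 ratio per length of SLCO2A1 to SLCO2B1 was 5.04 in replicate 2, and this library stood apart from the other 7, which had 6.14 to 6.75. In replicate 2 SLCO2A1 was at its lowest (97.3 CPM) and SLCO2B1 at its highest (3.08 CPM). Chance alone marks about 1 in 20 such sets of 8 values, and 25 sets were examined (13 CPM levels and 12 ratios).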

How the results depend on the processing

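No pairing of libraries between groups was possible because the 8 libraries formed 1 group. The log2 ratios compared 2 genes within the same library. The number of detected carriers was 13 with either alternative scaling, 15 to 18 with looser CPM rules, 20 with 10 counts in every library and 13 to 14 with any library left out. It was 13 without replicates 2 and 8, an alternative added after seeing the data. Of all 23346 genes, 14671 had at least 10 counts in every library, and 11987 to 12078 were detected with any library left out. The numbers of all genes under the looser CPM rules are not given here. The number of carriers above the variation trend was 0, and 1 with the DESeq2 trend (SLC15A3), with the length and GC trend removed (SLC15A3) and with no filter on low counts (SLCO1A2, at most 0.492 CPM). With any library left out it was 0 to 1. Over all genes the number above the trend was 558, and 2811 with the DESeq2 trend and 335 without replicates 2 and 8. It was 746 with the length and GC trend removed, 674 with no filter on low counts and 381 without replicate 8. The log2 ratio of SLC22A5 to SLC22A4 was 0.11 on the authors' values (exact permutation adjusted p = 0.0312), -2.29 with union exon lengths (adjusted p = 0.00852), -0.080 with 0.01 CPM added (adjusted p = 0.0938) and -0.084 without replicates 2 and 8 (adjusted p = 0.0938), and it ran from -0.10 to -0.070 with any library left out (adjusted p = 0.0156 to 0.0781). That of SLC15A4 to SLC15A3 was -0.40 with union exon lengths (exact permutation adjusted p = 0.109). The other 10 ratios kept their sign and their side of the threshold in each alternative run, which for the authors' values covers 8 of the 12 pairs, but not their size. Beyond the shifts of over 1.5 times given with the results, union exon lengths gave 7.14 for SLCO2A1 to SLCO2B1 and 11.1 for SLC29A1 to SLC28A3, 1 CPM added gave 8.60 for SLC29A1 to SLC29A4, and 0.01 CPM added gave 4.23 for SLCO2B1 to SLCO1A2. Union exon lengths moved the RPKM of 11 of the 13 carriers by more than their SD, to 75.3 for SLC29A1. The cause of the other changes was not tested.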

Other observations

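Of the 64 detected partner genes 1 varied above the trend, against 4.66% of all genes tested. It was SLC9A3R2 (NHERF2), a PDZ adaptor that tethers membrane carriers, which had 90.1, 194, 107, 102, 110, 103, 172 and 302 CPM in replicates 1 to 8 (edgeR goodness-of-fit adjusted p = 0.0232). Its 3 highest values were in replicates 8, 2 and 7, the libraries with negative length slopes, and the part of those slopes was not tested. SLC9A3R1 had 50.3 ± 12.8 CPM (SD, n = 8), and PDZK1 and PDZK1IP1 were not detected (0.180 and 0.285 CPM).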
